A study of Homo sapiens with 12 samples.

Results

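CRKL, CRK and the proteins that signal with them were followed as 10 genes, chosen by name from 59385 gene names in the count table. The 10 were the adaptors CRKL, CRK and GRB2, the docking proteins BCAR1 and GAB1, the exchange factors RAPGEF1, DOCK1 and SOS1, and the tyrosine kinases ABL1 and ABL2. They were picked with earlier results of these data known. All 10 passed the filter on low counts, which kept 18166 genes.

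CRKL and CRK are adaptors without enzymatic activity. Their SH2 domain docks on phosphorylated tyrosines of scaffolds such as BCAR1 and GAB1, and their SH3 domain carries exchange factors to these sites, where RAPGEF1 loads RAP1 with GTP and DOCK1 loads RAC1. GRB2 is built in the same way from SH2 and SH3 domains and brings SOS1 to receptor tyrosine kinases, where it loads RAS. ABL1 and ABL2 phosphorylate both CRKL and CRK, and the pathway is best known for cell adhesion, migration and growth.

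The measurements came from HEK293T, a human embryonic kidney cell line, in which PRRC2B, an RNA-binding protein with a role in translation, was depleted. Both groups of cells carried a Dox-inducible shRNA and were collected 36 h after induction. The shCtrl cells expressed a non-silencing shRNA and the shPRRC2B cells one against the PRRC2B coding region. Total RNA and the pooled RNA of the polysome fractions were sequenced from each line in 3 biological replicates, which gave 12 libraries. Each shRNA was carried by 1 single-clone line, so the shRNA cannot be told apart from the clone, and the p-values measure the spread between cultures of these lines. These p-values rest on the same spread per gene for total and polysome RNA, though polysome replicates differed more. Errors may thus be too wide in total RNA and too narrow in polysome RNA. In bulk RNA, fewer cells with an mRNA and less of that mRNA per cell also cannot be told apart.

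Library totals lay between 9855734 and 20837542 counts. PRRC2B itself, the targeted gene, was at 258 to 313 CPM, the count relative to the scaled library size, in shCtrl total RNA and at 97.9 to 103 CPM in shPRRC2B total RNA, a log2 change of -1.49 ± 0.17 (SE, n = 3 per group, adjusted p = 4.25e-06, edgeR's quasi-likelihood test, Benjamini-Hochberg adjusted). Of its exon bases, 26% also belong to other annotated genes, which may lower its count. Of the marker genes, KRT8 lay between 20.4 and 156 CPM, KRT18 between 34.6 and 135 CPM, VIM between 118 and 460 CPM, LIN28B between 16.1 and 147 CPM, NEFM between 7.60 and 309 CPM and PAX2 between 2.55 and 12.7 CPM. PTPRC and CD3E had at most 1 count in a library, PECAM1 at most 3 and ALB at most 5. COL1A1 (2.93 to 33.9 CPM) and GFAP (0.55 to 5.04 CPM), chosen as markers of fibroblasts and astrocytes, were detected in every library.

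The study located PRRC2B on mRNA by PAR-CLIP, which crosslinks a protein to the RNA it touches. Among the 10 genes, listed sites of full-length PRRC2B or of its P2 fragment fell in CRKL, GRB2 and RAPGEF1. The stretch of each site around its longest run of C and T is shown, because these 3 transcripts of the set carried a listed site. The stretch was chosen by its bases, not by a crosslinked position, and the RAPGEF1 site was listed for the P2 fragment alone. Sequences are from GRCh38, 5′ to 3′ on the transcribed strand with T for U, and capitals mark the run.
CRKL, chr22:20917709-20917738 (+): ttcccgggcggCTCTCTCCgtgtggcggcc
GRB2, chr17:75318692-75318721 (-): gctgcttgtgCCTCCCTTCCCagtgggctg
RAPGEF1, chr9:131578583-131578612 (-): aggccagcaCCTCCCTCCTCCatcgctcgc
The CRKL site of full-length PRRC2B (chr22:20917670-20917769) lay in exon 1, in the 5′ UTR, and ended 165 nt before the start codon. A site of the P2 fragment covered the same bases shifted by 1. Pyrimidines made up 56 of its 100 bases, and the longest run of them was 8. The GRB2 site (chr17:75318682-75318781) lay in exon 6, in the 3′ UTR of the canonical transcript, with 55 of 100 bases C or T and a run of 11. The RAPGEF1 site of the P2 fragment (chr9:131578533-131578632) lay in exon 27, also in the 3′ UTR, with 64 of 100 bases C or T and a run of 12. Its longest run of G and A was also 12 bases, while that of the CRKL and GRB2 sites was 6. Of these 3 genes, TE fell for CRKL and RAPGEF1 and was not called for GRB2. The study took as PRRC2B-bound the mRNAs with overlapping sites of the full-length protein and the P2 fragment. Among these 3 genes this holds for CRKL alone.

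Translation efficiency (TE) was taken as the ratio of polysome RNA to total RNA, and its change as the ratio of the shPRRC2B line divided by the ratio of the shCtrl line. A gene was called when its log2 change was beyond 0.5 in either direction at an adjusted p under 0.05, in edgeR's quasi-likelihood test, adjusted over all 18166 genes by the Benjamini-Hochberg method. TE fell for 6 of the 10 genes, CRKL, GAB1, RAPGEF1, SOS1, ABL1 and ABL2, and rose for 0. Over all genes tested, 16.4% were called for lower TE and 10.7% for higher TE. Long transcripts were called lower more often, and among the 6964 genes with a canonical transcript as long as those of the set (3273 to 12217 nt) the share was 32.1% lower and 4.85% higher. The median log2 TE change of the 10 genes was -1.04, with 9 below 0, against -0.03 over all genes and -0.42 over the genes of their length. The plot of CPM by library shows where these falls arose: in total RNA the 6 genes had log2 values between -0.36 and 0.31, and in polysome RNA every shPRRC2B library of each lay below every shCtrl one.

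**Figure D1:**
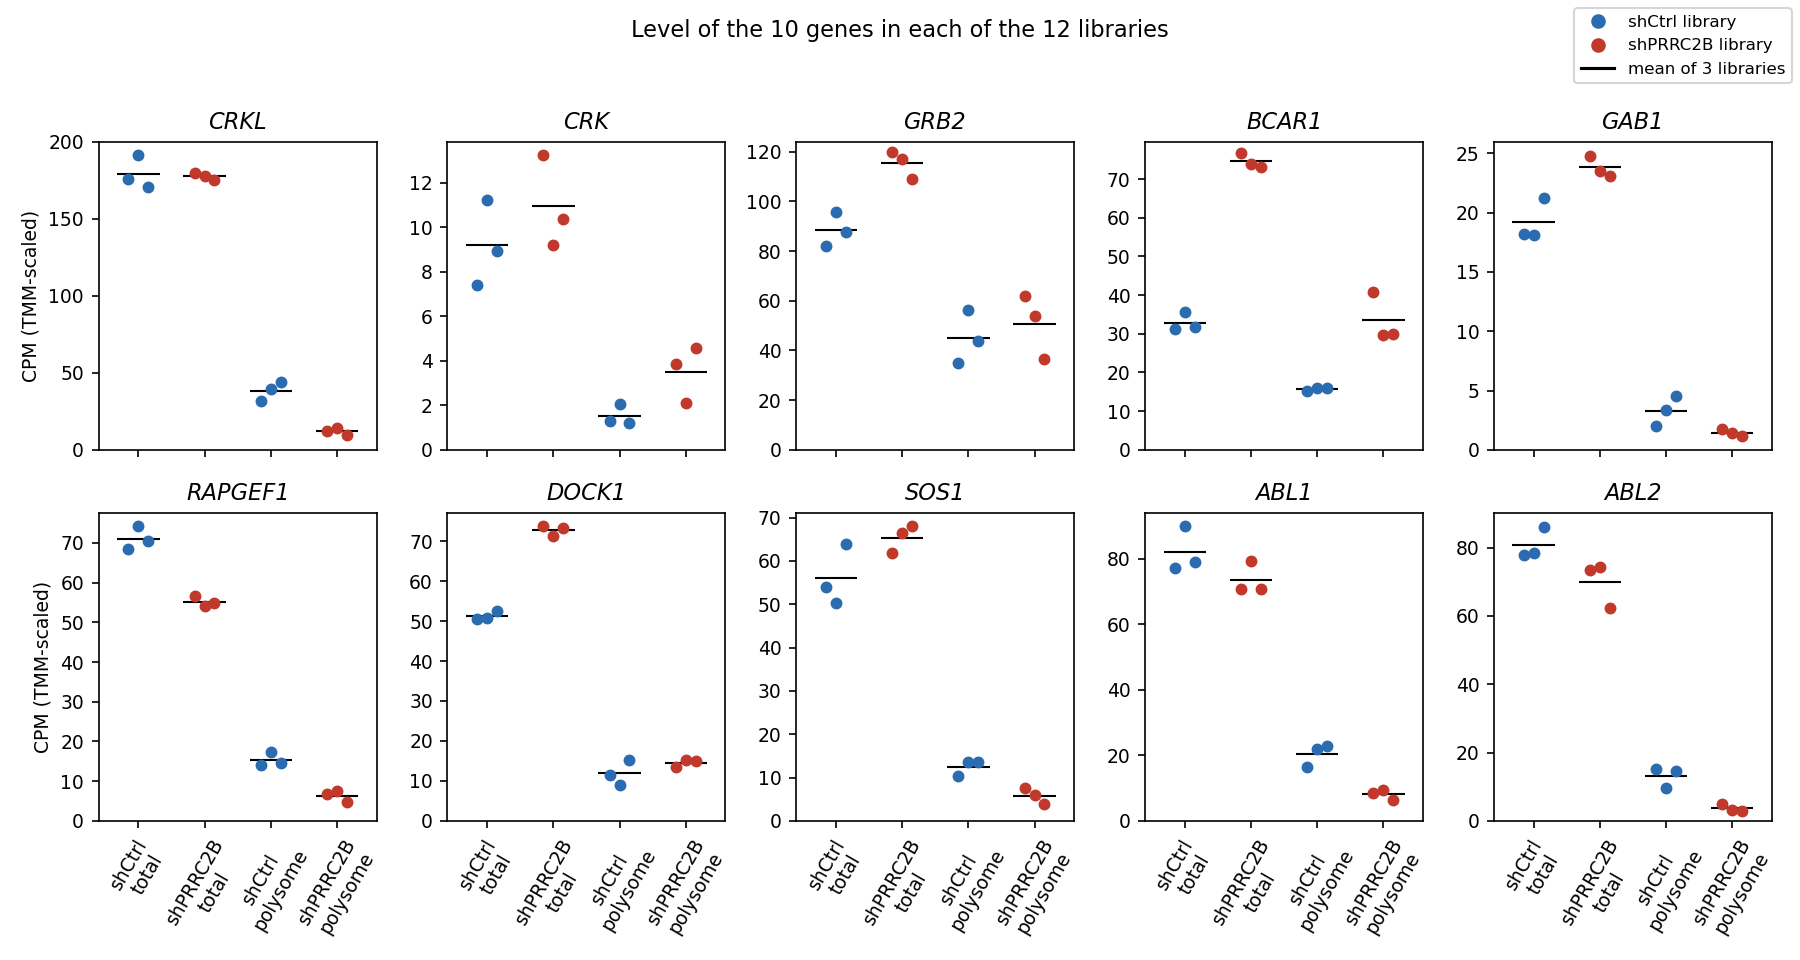
CPM (TMM-scaled, linear axis from 0) of each of the 10 genes in the 12 libraries, with 3 libraries per line and fraction as points and their mean as a bar. CRKL was at 170.5 to 191 CPM in total RNA of both lines but at 31.9 to 43.8 CPM in shCtrl polysomes and 9.89 to 14.1 CPM in shPRRC2B polysomes, while BCAR1 was higher in shPRRC2B cells in both fractions.

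CRKL, the adaptor first known as a substrate of BCR-ABL, fell in polysome RNA, with a total RNA value near 0. In total RNA it was at 176, 191 and 170.5 CPM in the 3 shCtrl libraries and at 179.8, 178 and 175 CPM in the shPRRC2B libraries, so that the lines overlapped. In polysome RNA it was at 31.9, 39.5 and 43.8 CPM in shCtrl and at 12.2, 14.1 and 9.89 CPM in shPRRC2B. Every shPRRC2B polysome library lay below every shCtrl one. The log2 change was -0.01 ± 0.13 (SE, adjusted p = 0.947) in total RNA and -1.67 ± 0.15 (adjusted p = 2.93e-07) in polysome RNA by edgeR's quasi-likelihood test, and TE was 3.14-fold lower (log2 -1.65 ± 0.20, adjusted p = 3.61e-05). Its binding site in the 5′ UTR, shown above, was the only one in the set for which sites of both the full-length protein and the P2 fragment were listed.

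CRK, the homologue of the viral oncogene after which the family is named, was counted at low levels. It was at 7.40, 11.2 and 8.91 CPM in shCtrl total RNA and at 13.3, 9.19 and 10.4 CPM in shPRRC2B total RNA, which overlapped. In polysome RNA, where a library held only 11 to 48 counts of it, CRK was at 1.31, 2.06 and 1.22 CPM in shCtrl and at 3.87, 2.10 and 4.57 CPM in shPRRC2B. All shPRRC2B polysome libraries were above all shCtrl ones, though 1 of them, at 2.10 CPM, by a small margin. CRK rose in polysome RNA (log2 1.20 ± 0.35, adjusted p = 0.00984, edgeR's quasi-likelihood test), and its TE value of 0.95 ± 0.43 was not called (adjusted p = 0.112). The polysome call was lost without shCtrl polysome replicate 3 (0.97, adjusted p = 0.0600 in edgeR) or without shPRRC2B polysome replicate 3 (0.90, adjusted p = 0.0743), and TE was called without shPRRC2B polysome replicate 2 (1.18, adjusted p = 0.0412).

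The level of CRK is to be read with the genes beside it on chromosome 17, which were looked up after its values were seen. PRPF8, a core splicing factor that every cell uses, lay 187.5 kb from CRK and was listed at 0 to 3 counts per library. SLC43A2, at 106.1 kb, had 0 to 4 counts and YWHAE, at 20.5 kb, between 30 and 546. MYO1C, INPP5K and PITPNA, within 54.6 kb, had between 211 and 3482 counts. Whether the counting left out part of the reads of this region was not tested.

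GRB2, the adaptor of SOS1, was higher in shPRRC2B total RNA, at 119.8, 117 and 109 CPM, than in shCtrl total RNA, at 82.2, 95.5 and 87.5 CPM. These groups did not overlap, but the log2 change of 0.38 ± 0.17 was not called (adjusted p = 0.100, edgeR's quasi-likelihood test). In polysome RNA GRB2 was at 34.7, 56.3 and 43.9 CPM in shCtrl and at 61.7, 54.0 and 36.4 CPM in shPRRC2B, and the groups overlapped. Its polysome value was 0.18 ± 0.18 (adjusted p = 0.458) and its TE value -0.21 ± 0.25 (adjusted p = 0.581) by the same edgeR test, and the sign of the polysome value turned when polysome replicate 1 of either line was left out. GRB2 thus carried a listed site of full-length PRRC2B, without one of the P2 fragment, and no called change in any of the 3 comparisons.

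BCAR1, the focal adhesion scaffold on which CRK docks, had the largest total RNA change of the 10 genes. It was at 31.2, 35.7 and 31.8 CPM in shCtrl and at 76.7, 73.9 and 73.2 CPM in shPRRC2B. In polysome RNA it was at 15.2, 16.1 and 16.1 CPM in shCtrl and at 40.9, 29.8 and 30.1 CPM in shPRRC2B. The lines did not overlap in either fraction, and the rise was of like size in both: log2 1.18 ± 0.13 in total RNA (adjusted p = 5.32e-06) and 1.09 ± 0.15 in polysome RNA (adjusted p = 1.45e-05, edgeR's quasi-likelihood test). Its TE value was -0.09 ± 0.20 (adjusted p = 0.783). Of the exon bases of BCAR1, 8.75% also belong to other annotated genes.

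GAB1, the docking protein of receptors such as MET, fell in polysome RNA and was not called in total RNA. It was at 18.2, 18.1 and 21.3 CPM in shCtrl total RNA and at 24.8, 23.5 and 23.1 CPM in shPRRC2B total RNA, higher in every shPRRC2B library. In polysome RNA GAB1 was at 1.97, 3.36 and 4.55 CPM in shCtrl and at 1.72, 1.43 and 1.14 CPM in shPRRC2B, lower in every shPRRC2B library, on 12 to 41 counts each. The total RNA value of 0.31 ± 0.19 was not called (adjusted p = 0.212), the polysome value fell by 1.17 on the log2 scale (SE 0.30, adjusted p = 0.00407), and TE was 2.80-fold lower (log2 -1.49 ± 0.35, adjusted p = 0.00505, edgeR's quasi-likelihood test). The polysome call was lost with libraries centred on the trend of counts with transcript length (-0.65, adjusted p = 0.0801 in edgeR).

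RAPGEF1, the exchange factor that CRK and CRKL bring to RAP1, was lower in every shPRRC2B library in both fractions. In total RNA it was at 68.4, 74.2 and 70.6 CPM in shCtrl and at 56.6, 54.2 and 55.0 CPM in shPRRC2B, without overlap. In polysome RNA it was at 14.0, 17.5 and 14.6 CPM in shCtrl and at 6.79, 7.45 and 4.76 CPM in shPRRC2B, again without overlap. Its total RNA value of -0.36 ± 0.14 passed on p (adjusted p = 0.0460) but not on size, its polysome RNA fell by 1.28 on the log2 scale (SE 0.17, adjusted p = 1.21e-05), and TE was 1.88-fold lower (log2 -0.91 ± 0.21, adjusted p = 0.00471, edgeR's quasi-likelihood test). This was the smallest called TE change of the 10 genes.

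DOCK1, the exchange factor for RAC1 that works with ELMO proteins, rose in total RNA by a margin close to the size threshold. It was at 50.6, 50.7 and 52.6 CPM in shCtrl and at 73.9, 71.4 and 73.4 CPM in shPRRC2B total RNA, without overlap. In polysome RNA DOCK1 was at 11.5, 8.90 and 15.3 CPM in shCtrl and at 13.5, 15.2 and 15.0 CPM in shPRRC2B, which overlapped. The total RNA change was 0.51 ± 0.14 (adjusted p = 0.0109), the polysome value 0.29 ± 0.17 (adjusted p = 0.163) and the TE value -0.22 ± 0.22 (adjusted p = 0.497, edgeR's quasi-likelihood test). The total RNA call was lost in 13 of 20 alternatives, where the log2 value was between 0.37 and 0.50. Of the exon bases of DOCK1, 5.29% are shared with an antisense lncRNA. The counting options given in the methods set no strand, and pairs mapping to more than 1 gene were left out. The overlap may therefore lower the count of DOCK1.

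SOS1, which loads RAS with GTP, lay at 53.9, 50.4 and 63.9 CPM in shCtrl total RNA and at 61.7, 66.4 and 68.0 CPM in shPRRC2B total RNA, with overlap. In polysome RNA it was at 10.4, 13.6 and 13.5 CPM in shCtrl and at 7.48, 6.02 and 4.0 CPM in shPRRC2B. No shPRRC2B polysome library reached the lowest shCtrl one. Its total RNA value was 0.22 ± 0.16 (adjusted p = 0.30), its polysome RNA fell by 1.09 on the log2 scale (SE 0.20, adjusted p = 0.000310), and TE was 2.48-fold lower (log2 -1.31 ± 0.26, adjusted p = 0.00130, edgeR's quasi-likelihood test). SOS1 shared 5.46% of its exon bases with the intronic transcript SOS1-IT1.

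ABL1, the kinase of the BCR-ABL fusion, was at 77.2, 89.9 and 79.1 CPM in shCtrl total RNA and at 70.9, 79.3 and 70.6 CPM in shPRRC2B total RNA, with overlap. In polysome RNA it was at 16.3, 21.8 and 22.8 CPM in shCtrl and at 8.60, 9.46 and 6.28 CPM in shPRRC2B, without overlap. Its total RNA value was -0.16 ± 0.15 (adjusted p = 0.431), its polysome RNA fell by 1.32 on the log2 scale (SE 0.17, adjusted p = 1.28e-05), and TE was 2.24-fold lower (log2 -1.16 ± 0.23, adjusted p = 0.00122, edgeR's quasi-likelihood test).

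ABL2, the paralogue of ABL1, was at 77.8, 78.5 and 86.1 CPM in shCtrl total RNA and at 73.6, 74.4 and 62.2 CPM in shPRRC2B total RNA, lower in every shPRRC2B library. In polysome RNA it was at 15.3, 9.77 and 14.5 CPM in shCtrl and at 4.99, 3.15 and 2.85 CPM in shPRRC2B, without overlap. The total RNA value of -0.20 ± 0.16 was not called (adjusted p = 0.349), polysome RNA fell by 1.84 on the log2 scale (SE 0.22, adjusted p = 4.22e-06), and TE was 3.10-fold lower (log2 -1.63 ± 0.27, adjusted p = 0.000371, edgeR's quasi-likelihood test). CRKL and ABL2 thus had TE values of near equal size, and their own difference was not tested.

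The TE change is the polysome RNA change minus the total RNA change and rests on the same libraries, so these comparisons are not independent. In polysome RNA 6 of the 10 genes fell (CRKL, GAB1, RAPGEF1, SOS1, ABL1 and ABL2) and 2 rose (CRK and BCAR1), where 21.4% of all genes were called lower and 18.4% higher. In total RNA 2 rose (BCAR1 and DOCK1) and 0 fell, where 14.9% of all genes were called higher and 14.1% lower. The median log2 change of the 10 genes was -1.13 in polysome RNA and 0.24 in total RNA, against -0.01 and 0.04 over all genes. The 3 libraries of the 2 lines did not overlap for 8 of the 10 genes in polysome RNA, where this held for 43.1% of all genes, and for 6 of the 10 in total RNA, where it held for 63%. The count in total RNA was therefore close to that of the table as a whole.

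**Figure D2:**
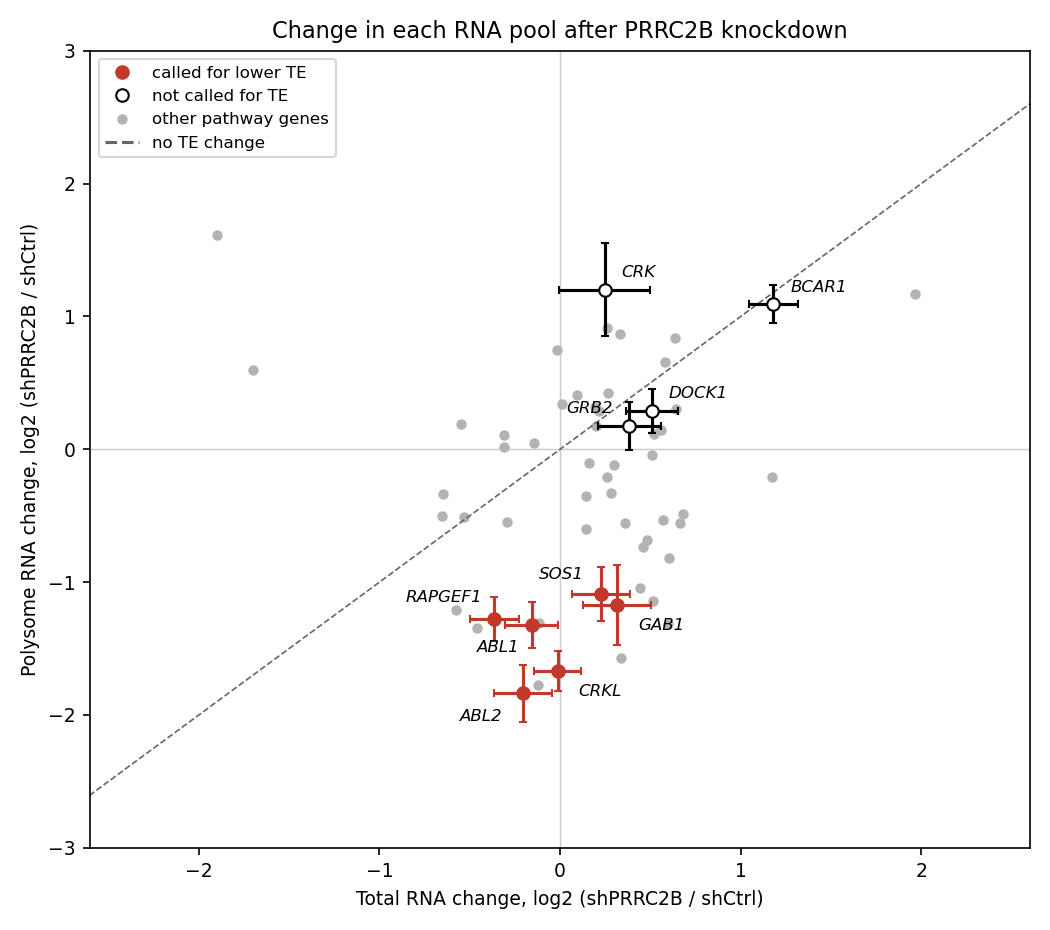
Log2 change between shPRRC2B and shCtrl cells in total RNA (horizontal axis) and in polysome RNA (vertical axis) for the 10 genes with standard errors, and for 48 other genes of the pathway as grey points. The 6 genes called for lower TE lie below the dashed line of equal change, between -1.09 and -1.84 in polysome RNA and between -0.36 and 0.31 in total RNA, while BCAR1 and DOCK1 lie near the line and CRK above it.

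Since TE moved with transcript length, the fit was repeated with the trend of each library's counts on transcript length removed, over the 15638 genes with a known length. CRKL (log2 -1.28, adjusted p = 0.000344), SOS1 (-0.68, adjusted p = 0.0399), ABL1 (-0.77, adjusted p = 0.0170) and ABL2 (-0.92, adjusted p = 0.0151) were still called lower by edgeR, 4 of 10 genes where 14.8% of all genes were and 8.19% were called higher. GAB1 (-0.91, adjusted p = 0.0612) and RAPGEF1 (-0.40, adjusted p = 0.171) were not, and the values of BCAR1 (0.12) and DOCK1 (0.31) turned to the other side of 0. With each library centred on its trend as well, CRKL (-1.20, adjusted p = 0.000490), ABL1 (-0.69, adjusted p = 0.0286) and ABL2 (-0.83, adjusted p = 0.0245) were called, 3 of 10 against 11.9% of all genes lower and 9.84% higher. With a replicate block beside the removed trend the same count, 3 of 10, stood against 13.8% lower and 7.56% higher. The median of the 10 genes was -0.54 with the trend removed and -0.46 with that centring, against -0.11 and -0.02 over all genes. CRKL, ABL1 and ABL2 were called lower under each of the alternatives run.

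**Figure D3:**
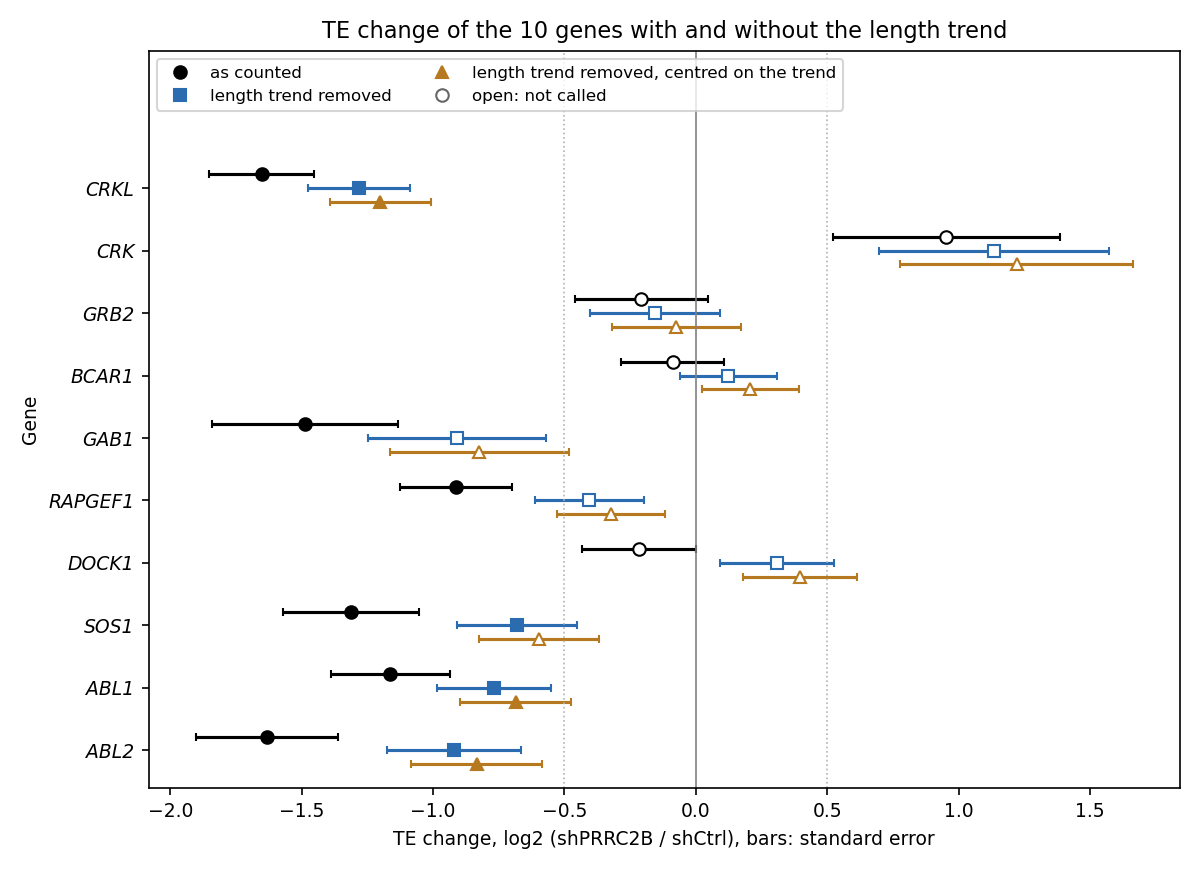
Log2 TE change of the 10 genes (horizontal axis, bars are standard errors) as counted, with the length trend removed, and with the trend removed and libraries centred on it, with filled points called and open points not called. CRKL moved from -1.65 to -1.28 and -1.20 and stayed called, ABL2 from -1.63 to -0.92 and -0.83, and RAPGEF1 from -0.91 to -0.40 and -0.32, which was not called.

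Within each line, all 10 mRNAs took a smaller share of polysome RNA than of total RNA. The polysome-to-total ratio was called below 0 on the log2 scale for 10 of 10 genes in shCtrl cells, where 39.8% of all genes were, and for 10 of 10 in shPRRC2B cells, where 42.3% were. In shCtrl cells the ratio was highest for GRB2 (log2 -0.98 ± 0.18, SE) and BCAR1 (-1.06 ± 0.14), and lowest for ABL2 (-2.61 ± 0.18), CRK (-2.59 ± 0.32) and GAB1 (-2.56 ± 0.23). CRKL stood between them at -2.22 ± 0.14, beside RAPGEF1 at -2.21 ± 0.15, SOS1 at -2.17 ± 0.18, DOCK1 at -2.11 ± 0.16 and ABL1 at -2.02 ± 0.16. The members' median was -2.19 in shCtrl cells and -3.15 in shPRRC2B cells, against -0.22 over all genes in either line and -1.16 and -1.58 over the genes with transcripts of their length. With the length trend removed, 9 of 10 were called lower in shCtrl cells and 8 of 10 in shPRRC2B cells, and 8 of 10 in either line with libraries centred on the trend. The shares of all genes under these settings are not given, so these counts cannot be set against them. In shPRRC2B cells ABL2 (-4.24 ± 0.21), GAB1 (-4.04 ± 0.25) and CRKL (-3.88 ± 0.16) were lowest, and BCAR1 (-1.15 ± 0.14) and GRB2 (-1.18 ± 0.18) remained highest.

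Per kilobase of canonical transcript, which allows levels to be compared between genes, CRKL led in shCtrl total RNA at 33.5 ± 2.00 CPM per kb (SD, n = 3). GRB2 followed at 27.0 ± 2.05, ABL1 at 14.7 ± 1.23 and RAPGEF1 at 10.5 ± 0.43 CPM per kb, each apart from the next in all libraries. BCAR1 (8.05 ± 0.60) and DOCK1 (7.50 ± 0.17) overlapped, as did ABL2 (6.61 ± 0.38) and SOS1 (6.29 ± 0.79), and GAB1 (2.47 ± 0.23) and CRK (2.39 ± 0.50). CRKL and GRB2 were thus the adaptors with the highest counted levels, and CRK stood at the other end of the order, with the doubt about its counts given above.

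The order changed in polysomes. In shCtrl polysome RNA GRB2 was first at 13.7 ± 3.31 CPM per kb, followed by CRKL at 7.19 ± 1.13, without overlap, and by BCAR1 at 3.86 ± 0.13 and ABL1 at 3.64 ± 0.63, which overlapped. In shPRRC2B polysome RNA GRB2 was at 15.5 ± 3.96 and BCAR1 at 8.22 ± 1.55 CPM per kb, and CRKL came after them at 2.26 ± 0.40, with ranges that overlapped those of DOCK1 at 2.13 ± 0.14. RAPGEF1 (0.94 ± 0.21), CRK (0.91 ± 0.33) and SOS1 (0.65 ± 0.20) overlapped further down, and ABL2 (0.30 ± 0.09) and GAB1 (0.18 ± 0.04) came last. In shPRRC2B total RNA the ranges of GRB2 (35.2 ± 1.76) and CRKL (33.2 ± 0.46) overlapped, and BCAR1 (18.3 ± 0.44) came next.

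Ratios of paralogues within a library do not depend on how libraries are scaled. The ratio of CRKL counts to CRK counts in polysome RNA was 24.4, 19.2 and 35.9 in the shCtrl libraries and 3.16, 6.73 and 2.17 in the shPRRC2B libraries. The groups did not overlap, and the difference of -2.84 on the log2 scale had p = 0.1 in a two-sided exact permutation test, the smallest that 3 against 3 libraries allow (0.4 after Benjamini-Hochberg adjustment over 4 ratios). In total RNA the ratio was 20.0 ± 3.48 (SD) in shCtrl and 16.6 ± 2.89 in shPRRC2B, with overlap and a log2 difference of -0.27 (exact permutation p = 0.4, adjusted 0.533). The doubt about the counts of CRK applies to both ratios.

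For ABL2 over ABL1 the polysome ratio was 0.94, 0.45 and 0.64 in shCtrl and 0.58, 0.33 and 0.45 in shPRRC2B, with overlap. The log2 difference was -0.53 (exact permutation p = 0.3, adjusted 0.533). In total RNA the ratio was 0.99 ± 0.11 (SD, n = 3) and 0.95 ± 0.08, a log2 difference of -0.05 (exact permutation p = 0.8). With 3 libraries per group the exact permutation test cannot go below p = 0.1, so it could not have called a difference between the kinases.

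The genes whose pattern was most like that of CRKL were sought by Pearson's r of log2(CPM + 1) over the 12 libraries, among the 10050 tested genes that averaged 10 CPM or more. Among the 5 highest were EPB41 (r = 0.999), RNF150 (0.998), AMOT (0.998) and ABL1 (0.998). These libraries fall into 2 lines and 2 fractions, so r mainly follows the 4 group means and is a description. EPB41, a membrane skeleton protein, had mean CPM of 131 and 126 in shCtrl and shPRRC2B total RNA and of 20.2 and 5.23 in the polysome RNA of the same lines. Of the other members RAPGEF1 ranked 80th, ABL2 212th, SOS1 259th, GAB1 646th, DOCK1 3310th, GRB2 3740th and BCAR1 4852nd, and CRK was under the minimum of 10 CPM. ABL1 was the member nearest to CRKL, and the adaptor partner GRB2 and the scaffold BCAR1 were the farthest of those ranked.

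Features that the choice of genes did not use were read from the canonical transcripts. The GC content of the 5′ UTR was between 70% and 89.0% in the 10 genes, above the median of 67.6% over 13002 tested genes in 10 of 10. The median transcript was 6169 nt long against 3436 nt, and 9 of 10 were longer than that. Their 5′ UTRs had a median of 263 nt against 153 nt (7 of 10 above), and 6 of 10 held at least 1 ATG before the start codon, where the median number over all genes was 0. The share of all genes with at least 1 such ATG was not counted. The shares of C and T in the 5′ UTR were between 32.9% and 52.5%, above the overall median of 48.9% in 3 of 10. Within the set, the 4 genes not called for TE included the shortest transcript (GRB2, 3273 nt) and CRK and BCAR1 (3850 and 4085 nt), but also DOCK1 at 6840 nt. The 6 called genes were between 5342 nt (CRKL) and 12217 nt (ABL2) long. No test was made of these features.

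A wider list of 52 genes of the same pathway, without the 10, showed called changes in both directions. Of the 48 tested, TE fell for 16 (33.3%) and rose for 4 (8.33%), and the median log2 TE change was -0.41. These shares and the median were near those of genes with transcripts as long as the members', 32.1%, 4.85% and -0.42. Over all genes tested they were 16.4%, 10.7% and -0.03. The list was not limited to the members' lengths, and genes such as RRAS (986 nt) and RAP1B (13378 nt) lie outside them. With the length trend removed the list had 11 genes lower and 6 higher, where 14.8% and 8.19% of all genes were. With libraries centred on the trend it had 7 of each, where 11.9% of all genes were lower and 9.84% higher. The calls by role that follow therefore hold for the counts without that correction. GRB7, GRAP, EFS and CASS4 had too few counts for a test. The values by role are TE changes, which a change in total RNA also moves. Of the genes called for lower TE, PXN, RAPGEF2, CDC42 and PIK3CA were not called in polysome RNA. The others were called lower there.

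Among the adaptors, SHC1, which links receptors to GRB2, rose (log2 TE change 0.65, adjusted p = 0.0352 in edgeR's test), and NCK1 (0.15), NCK2 (0.07) and GRB10 (0.31) were not called. No adaptor of this list was called lower, but only 4 were tested. Of 8 docking and scaffold proteins 3 fell: FRS2 (-1.91), the docking protein of FGF receptors, CBL (-1.91), a ubiquitin ligase that binds CRKL, and the focal adhesion protein PXN (-0.61). GAB2, the paralogue of GAB1, was at -1.19 ± 0.48 and was not called (adjusted p = 0.0713).

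Of 8 exchange factors and partners 3 fell, SOS2 (-1.49), DOCK4 (-1.65) and RAPGEF2 (-1.22), each from the family of a member. TE of DOCK3 rose by 2.30 (adjusted p = 9.53e-06 in edgeR's test), the largest called TE change of the list. Its log2 change was -1.70 in total RNA and 0.60 in polysome RNA. For DOCK4 these values were -0.12 and -1.77. TE of DOCK proteins thus moved in both directions. ELMO1 (0.77) and ELMO2 (-0.55), the partners of DOCK1, were not called.

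Of 8 tyrosine kinases and phosphatases 3 fell, the phosphatases PTPN11 (-1.66) and PTPN12 (-1.20) and the kinase YES1 (-0.75). SRC (0.19), FYN (-0.02) and the focal adhesion kinase PTK2 (0.33) were not called. PTPN11 is a partner of GAB1, and PTPN12 removes phosphate from BCAR1.

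Among the small GTPases of the list, TE fell for CDC42 (-1.38), NRAS (-0.91) and RHOA (-0.89). For CDC42 total RNA rose by 1.17 on the log2 scale, and its polysome RNA value of -0.21 was not called. The substrates of RAPGEF1, RAP1A (0.33) and RAP1B (0.20), and the substrate of DOCK1, RAC1 (-0.26), were not called. HRAS, at 3.52 ± 1.61 (SE), was not called either. Further downstream the kinases PAK2 (-1.42) and PIK3CA (-1.16) fell, and ARAF (0.53) rose.

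**Figure D4:**
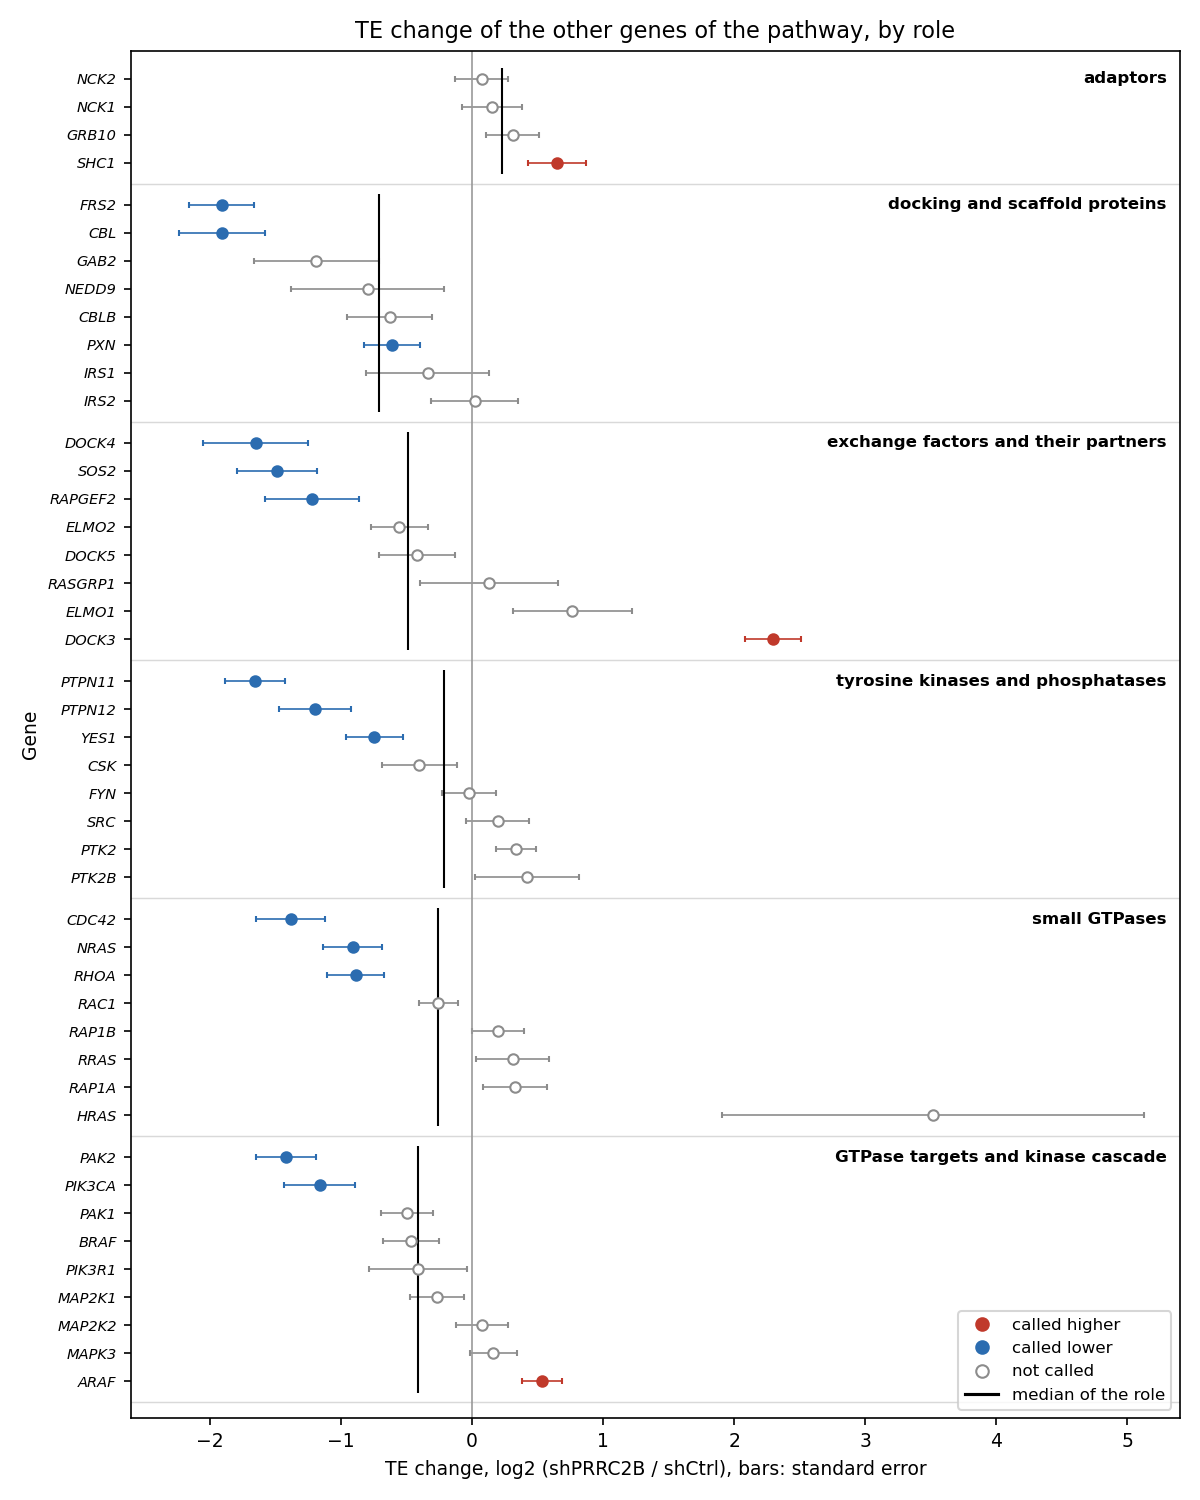
Log2 TE change with its standard error for 45 tested genes of the wider pathway list, ordered within 6 roles, with called genes in blue (lower) or red (higher) and the median of all tested genes of each role as a vertical bar. Called falls lie between -0.61 (PXN) and -1.91 (FRS2 and CBL) and stand in every role but the adaptors, of which only 4 were tested. The rises shown are SHC1, DOCK3 and ARAF.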

How the data were processed

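Polysome-seq was carried out on total and polysome RNA of shCtrl and shPRRC2B HEK293T cells, 3 biological replicates each. Per the submitters' processing notes and the methods, the authors trimmed reads with Trimmomatic 0.36, mapped them to GRCh38 with HISAT2 and counted pairs with featureCounts (Subread 2.0.1) on GENCODE gene names. Pairs mapping to more than 1 place or gene were left out, which lowers genes with close copies. The authors deposited raw counts per gene name without normalization. The table held 0 value columns of no library and 5 empty unnamed columns.

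The tests were run with edgeR 4.0.16 under R 4.3.3 (filterByExpr with a minimum count of 10, TMM scaling, glmQLFit and glmQLFTest on the 4 groups, no block). Calls required a log2 change beyond 0.5 or -0.5 and an adjusted p under 0.05. CPM use TMM-scaled library sizes. TE was the interaction of line and fraction. Scaling within a fraction is relative, so a change in the overall amount of polysome RNA is not measured. Ratios of paralogues were compared by exact permutation. Transcript lengths and positions are those of GENCODE 44 canonical transcripts. Binding sites were read from the study's tables by position only, and sequences from GRCh38. Intervals and errors cover the spread between libraries, and no share of a single library is reported.

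The 10 genes, the pathway list, the markers and the tests were chosen with earlier results of these data known. The genes named were the 10, PRRC2B, the pathway genes called for TE and the 5 genes most like CRKL, of which 4 are not reported here. Other pathway genes with values, the markers and the neighbours of CRK stand outside that rule. The fit was also run on simulated counts drawn with the same spread per gene in both fractions. That run cannot show how unequal spreads affect the calls, and its outcome is not given here. Alternatives were DESeq2 1.42.0, RLE, scaling by total counts, every gene with at least 1 count, the transcript length trend removed (lowess, span 0.3), replicate blocks and each library left out. Centring libraries on the length trend and leaving out CRK were added after the data were seen. No library pair differed by so little as to be the same library deposited again (chi-square per degree of freedom 3.24 to 75.4). Between replicates it was 3.24 to 8.63 in total RNA and 13.9 to 75.4 in polysome RNA.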

Additional observations from a re-analysis of the deposited data

Results flagged for a closer look

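The polysome-to-total ratio changed between the lines by more than the spread between libraries for 6 of the 10 genes, as an interaction of line and fraction in edgeR's quasi-likelihood test. These were CRKL (log2 TE change -1.65), GAB1 (-1.49), RAPGEF1 (-0.91), SOS1 (-1.31), ABL1 (-1.16) and ABL2 (-1.63). No group of 4 or more libraries exists, so no library was tested for standing apart from its group.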

How the results depend on the processing

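Of 610 values of single members under an alternative, 571 kept their direction and their side of the threshold, 25 lost a call, 4 gained one and 10 turned direction. The count of members called for TE, 6 as reported, was 6 to 7 with a library left out, 4 with the length trend removed, and 3 with the libraries centred on that trend. The count called in total RNA, 2 as reported, was 1 with scaling by total counts, with every gene of at least 1 count, and with the length trend removed, also when centred on the trend, and lay between 1 and 2 with a library left out, since DOCK1 dropped out. The TE value of BCAR1 turned to 0.12 with the length trend removed and to 0.21 with centring, and that of DOCK1 to 0.31 and 0.40. With a library left out, CRKL in total RNA lay between -0.063 and 0.033 and turned to 0.033 without shCtrl total replicate 2 and to 0.000103 without shPRRC2B total replicate 3. GRB2 in polysome RNA lay between -0.10 and 0.28 and turned to -0.07 without shCtrl polysome replicate 1 and to -0.10 without shPRRC2B polysome replicate 1. The polysome count of 8 lay between 7 and 9. DOCK1 entered it with the length trend removed (0.68), and GAB1 left it with centring (-0.65). The pathway list gave 17 to 22 calls with a library left out and 14 to 23 otherwise. With the length trend removed 6 were higher and 11 lower, against 8.19% and 14.8% of all genes. When centred on the trend there were 7 of each, against 9.84% higher and 11.9% lower.

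Same-numbered total and polysome libraries of a line shared little (r 0.0014 to 0.070, 0 of 6 over 0.1), so the numbers were not taken to pair the samples. With a replicate block 6 members were called for TE, 2 in total RNA and 8 in polysome RNA, and with a block within each line 6 for TE. The shares of all genes called with these blocks are not given, so the counts show only how the members' calls held. With the block and the length trend removed, 3 were called for TE, 1 in total RNA and 8 in polysome RNA, BCAR1 turned to 0.12 and DOCK1 to 0.32 in TE, and SOS1 was not called in TE (-0.68, adjusted p = 0.0605 in edgeR) nor GAB1 in polysome RNA (-0.73, adjusted p = 0.0624). Depth limits CRK and GAB1 most, with 11 to 48 polysome counts per library.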
